A study of Mus musculus with 69 samples.

Results

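The genes described are 7 transcription factors that act downstream of, or feed back on, the circadian clock: Dbp, Tef, Hlf, Nfil3, Ciart, Bhlhe40 and Bhlhe41. They were found through the RefSeq transcript accession of each array probe, which placed 11 of the 41174 probes on the array in these 7 of 18749 named genes. Each gene was read from the probe with the brightest lung signal, called its leading probe, and its other probes are given beside it. The set was brought forward because Dbp differed between the materials on day 28. Every difference of treated day 28 lungs is therefore a description without a test. These lungs enter tests only through the spread, in the day 1 fit of the materials and in alternative fits of all 14 groups.

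RNA was measured in whole lungs of female C57BL/6 mice that had received a single intratracheal instillation of nano-sized titanium dioxide. The particles were NRCWE-025 or NRCWE-030, given at 18, 54 or 162 µg in water with 2% serum, and controls received the vehicle alone. Mice were 5 to 7 weeks old on arrival, acclimatised for 1 to 3 weeks in a fixed light and dark cycle, and lungs were taken 24 h (day 1) or 28 days after the instillation. There were 69 arrays, 1 mouse each, in 14 groups of 5, except that 4 mice made up the day 28 group given 162 µg of NRCWE-025. The vehicle groups of each day, control replicates 1 to 5, served both materials. The clock time at which lungs were taken is not given in the sources used here, so time of day and group cannot be told apart.

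The clock drives its output through a small number of DNA elements. CLOCK and BMAL1 bind E-boxes and switch on Dbp, Tef and Hlf, the PAR bZIP activators, which in turn bind D-boxes. Nfil3 (E4BP4) binds the same D-boxes as a repressor and is itself controlled through ROR elements, while Ciart (CHRONO), Bhlhe40 (DEC1) and Bhlhe41 (DEC2) repress CLOCK and BMAL1. Dbp, Tef and Hlf therefore peak near the same time of day in many tissues, and Nfil3 peaks when they are low.

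Upstream windows of the RefSeq start sites (assembly GRCm38.p6) are shown for the members in which a searched element was found, since these elements are the link between the clock and its output. RefSeq windows matched 6 of the 7 genes, Tef with 2 start sites, and Bhlhe40 had none. Searches used the E-box CACGTG, the E'-box CACGTT, the D-box TTATGTAA or TTACGTAA and the ROR element TAGGTCA or TGGGTCA, on both strands of 300-base windows. Of all 32851 windows, 7.15% held an E-box, 4.68% an E'-box, 1.06% a D-box and 6.45% a ROR element. Only the 250 bases before each start are printed, 5′ to 3′ on the strand of the gene, with a matched E-box or ROR element in capitals.
Tef, chr15:81802423-81802672, plus strand: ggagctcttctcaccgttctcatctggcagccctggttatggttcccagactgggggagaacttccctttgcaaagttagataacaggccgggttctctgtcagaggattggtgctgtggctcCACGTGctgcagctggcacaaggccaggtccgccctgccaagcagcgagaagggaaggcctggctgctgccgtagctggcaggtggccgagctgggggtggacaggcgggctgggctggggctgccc
Tef, chr15:81811164-81811413, plus strand: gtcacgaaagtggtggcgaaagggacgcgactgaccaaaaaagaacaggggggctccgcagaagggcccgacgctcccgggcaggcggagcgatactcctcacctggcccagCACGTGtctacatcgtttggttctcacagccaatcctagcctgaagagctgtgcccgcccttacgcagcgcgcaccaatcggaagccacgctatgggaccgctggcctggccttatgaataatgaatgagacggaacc
Ciart, chr3:95882229-95882478, minus strand: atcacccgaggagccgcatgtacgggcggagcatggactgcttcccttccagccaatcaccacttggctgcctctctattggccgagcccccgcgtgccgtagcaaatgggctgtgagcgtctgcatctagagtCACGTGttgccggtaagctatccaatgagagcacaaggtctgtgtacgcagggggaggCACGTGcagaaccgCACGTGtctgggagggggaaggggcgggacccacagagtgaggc
Bhlhe41, chr6:145865421-145865670, minus strand: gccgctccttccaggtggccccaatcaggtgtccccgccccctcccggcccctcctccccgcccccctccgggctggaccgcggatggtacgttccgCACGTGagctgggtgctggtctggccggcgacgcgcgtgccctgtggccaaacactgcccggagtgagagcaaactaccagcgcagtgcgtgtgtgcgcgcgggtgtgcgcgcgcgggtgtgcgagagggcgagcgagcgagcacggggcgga
Nfil3, chr13:52981040-52981289, minus strand: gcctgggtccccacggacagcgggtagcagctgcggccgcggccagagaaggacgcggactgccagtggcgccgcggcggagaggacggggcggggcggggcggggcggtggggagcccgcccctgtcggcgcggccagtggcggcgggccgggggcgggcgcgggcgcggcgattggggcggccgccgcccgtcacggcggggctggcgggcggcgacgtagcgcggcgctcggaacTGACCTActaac
Ciart held 3 E-boxes, whereas 0.594% of all windows held 2 or more. Both Tef windows and Bhlhe41 held 1 E-box each, and Nfil3 held 1 ROR element, read on its other strand. In the windows of Dbp and Hlf none of the searched letters were found. Sequence outside the 300-base windows was not searched, so this does not show that these genes lack such elements.

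All values below are log2 ratios of lung RNA over a common mouse reference RNA on the same array, so they compare lungs with each other for 1 gene, and not genes with each other. The leading probes of Dbp, Tef, Hlf, Nfil3 and Bhlhe40 were well above background on all 69 arrays, that of Bhlhe41 on 62 and that of Ciart on 29. Between 49.1% and 72.8% of spots per array were well above background in the lung channel, and no pair of arrays correlated above 0.988. The lung label was checked against 5 epithelial genes, including the surfactant gene Sftpc, whose mean log2 ratio was between 5.51 and 6.07 in the 14 groups. In whole lung, fewer cells of a type and less RNA per cell cannot be told apart.

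One vehicle lung stood apart from its group in these genes. In control replicate 3 of day 1, Dbp was 2.26, Tef 2.18, Hlf 3.10 and Nfil3 -1.41, against highest values in the other 4 controls of -0.25, 0.96 and 1.82 for the 3 activators and a lowest value of -0.82 for Nfil3. It was the highest of all 69 arrays for Dbp. Over all probes it correlated at 0.972 with the rest of its group. The mean of the 7 measured stress hormone responsive genes was 0.55 there and at most -0.12 in the other 4 controls. Of these 7, Per1 is also a core clock gene, and Tsc22d3 is also among the genes rhythmic in many tissues described below. After group means were subtracted, the mean of the 7 correlated at -0.04 with Dbp over the 69 arrays. This value pools days that differed in sign for Per1 (0.31 on day 1, -0.11 on day 28) and Tsc22d3 (0.27 and -0.28). With group differences kept, Pearson's r of the single genes with Dbp ran from -0.06 (Sgk1) to 0.58 (Per1). A part of stress hormones in the values of this mouse was not tested. Differences of the members from the day 1 controls are therefore given with and without this mouse, a choice made after its values were seen. Leaving out a mouse for its extreme values in the genes tested lowers their spread. The p-values and calls without it are therefore a description only, and the results with all controls are the tests. Over all probes, the arrays farthest from the rest of their group were other ones, replicate 5 of 18 µg NRCWE-030 on day 28 and replicate 3 of 18 µg NRCWE-030 on day 1, with median absolute deviations of 0.227 and 0.211 (log2) against at most 0.173 elsewhere.

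Dbp, the activator named for its binding to the albumin promoter, had the widest span of group means of the 7 genes, from -1.27 ± 0.31 (SD, n = 5) to 1.82 ± 0.38 (SD, n = 5). On day 1 the vehicle lungs measured -0.55, -0.69, 2.26, -0.60 and -0.25. Lungs given NRCWE-030 measured 1.86, 2.11, 1.63, 1.93 and 1.50 at 18 µg. At 54 µg they measured 1.58, 1.81, 1.89, 1.55 and 1.43, and at 162 µg 1.46, 1.38, 2.21, 2.11 and 1.95. All 15 of these lungs lay above 4 of the 5 vehicle lungs and below control replicate 3. The 3 doses overlapped one another.

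**Figure D1:**
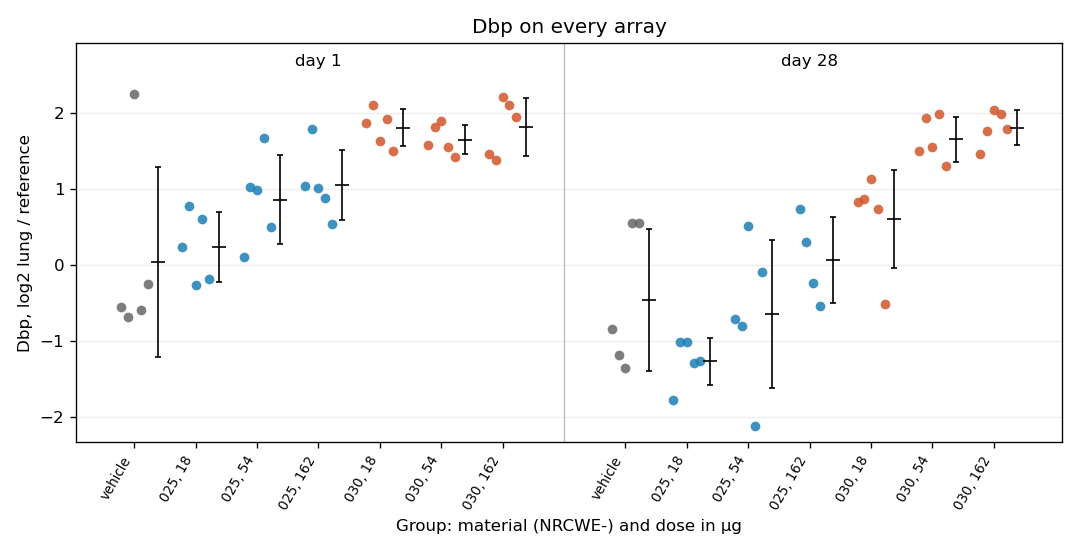
Dbp on every array as log2 lung over reference, by group, with day 1 on the left and day 28 on the right; points are mice and the bar beside them is the mean ± SD. The NRCWE-030 lungs lie between 1.38 and 2.21 at all 3 doses of day 1 and between 1.30 and 2.04 at 54 and 162 µg of day 28, and 1 vehicle lung of day 1 lies at 2.26.

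In limma's fit with Benjamini-Hochberg adjustment over 40831 probes, Dbp was 3.45-fold higher at 162 µg of NRCWE-030 on day 1 (log2 difference 1.79 ± 0.39 SE, adjusted p = 0.0299). At this dose 249 probes were called higher, 0.61% of those tested, and the leading probes of 2 of the 7 genes were among them, Dbp and Bhlhe40. Without control replicate 3 the Dbp difference was 2.34 ± 0.17 (limma's adjusted p = 1.36e-06), and 4 of the 7 genes (Dbp, Tef, Hlf and Bhlhe40) passed among 209 probes called higher (0.512%). The call with all controls was lost, with adjusted p up to 0.0929, when any 1 lung of the 162 µg group or any 1 of the other 4 controls was left out. Under other processing and fits it was kept, with adjusted p between 0.0002 and 0.0433. At 18 and 54 µg the differences were 1.77 and 1.62 (both SE 0.39), with limma's adjusted p of 0.279 and 0.158, and 0 and 8 probes (0.0196%) were called. Without control replicate 3 they were 2.33 and 2.17 (both SE 0.17), with adjusted p of 1.51e-06 and 4.76e-06, and 9 and 44 probes (0.022% and 0.108%) were called higher, among them Dbp at both doses and Tef at 54 µg. Without replicate 3 of the 18 µg group that dose differed from all 5 controls by 1.82 ± 0.42. The test for any dose effect, in which 211 probes (0.517%) were called, gave Dbp an adjusted p of 0.0551. When control replicate 3 was left out it gave 1.84e-06, with 228 probes (0.558%) and 3 of the 7 genes called. Exact two-sided permutation tests over the mice, unadjusted and with a smallest possible p of 0.0079, gave 0.0476 for Dbp at each NRCWE-030 dose.

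Arrays shared slides, and 19 slides were used in all. On the 3 day 1 slides that held a vehicle lung and an NRCWE-030 lung, Dbp was higher after NRCWE-030 on every slide, by 2.00 to 2.31 with doses pooled and by 1.67 to 2.46 at single doses. Control replicate 3 was on none of these 3 slides.

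After NRCWE-025, Dbp on day 1 measured 0.24, 0.78, -0.26, 0.61 and -0.19 at 18 µg. It measured 0.11, 1.03, 0.99, 1.67 and 0.50 at 54 µg, and 1.03, 1.80, 1.01, 0.88 and 0.54 at 162 µg. The group means were ordered by dose, 0.24 ± 0.46, 0.86 ± 0.59 and 1.05 ± 0.46 (SD, n = 5 each), but neighbouring doses overlapped. Lungs at 54 and 162 µg were above the 4 lower vehicle lungs. With all controls none of the 7 genes passed at any dose, nor in the test for any dose effect, in which 1 probe (0.00245%) was called. The Dbp difference at 162 µg was 1.02 ± 0.43 (SE, limma's adjusted p = 0.405), where 38 probes (0.0931%) were called. It was 1.57 ± 0.28 (SE, adjusted p = 0.036) without control replicate 3, with 12 probes (0.0294%) called higher. At 18 and 54 µg it was 0.20 and 0.82 (both SE 0.43, adjusted p of 0.999 and 0.884), or 0.76 and 1.38 (both SE 0.28, adjusted p of 0.935 and 0.351) without that control. On the 2 slides that held a vehicle lung and NRCWE-025 lungs, with doses pooled, Dbp was higher by 1.01 on one and lower (-1.05) on the other, which held control replicate 3.

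On day 28 the vehicle lungs fell into different ranges for Dbp, with -0.84, -1.18 and -1.36 in 3 mice and 0.55 in each of the other 2. Lungs given NRCWE-025 at 18 µg measured -1.78, -1.01, -1.01, -1.29 and -1.27. At 54 µg they measured -0.72, -0.81, 0.51, -2.12 and -0.10, and at 162 µg 0.73, 0.31, -0.25 and -0.55. These groups overlapped the vehicle lungs, and the differences from vehicle were -0.82, -0.19 and 0.52 in order of dose. Lungs given NRCWE-030 measured 0.83, 0.87, 1.13, 0.73 and -0.52 at 18 µg. They measured 1.50, 1.93, 1.56, 1.99 and 1.30 at 54 µg and 1.46, 1.76, 2.04, 1.99 and 1.79 at 162 µg. At 54 and 162 µg every NRCWE-030 lung was above every vehicle lung, with differences of 2.11 and 2.27 (both SE 0.34), or 4.33-fold and 4.81-fold. At 18 µg the difference was 1.07 ± 0.34 (SE), and 4 of 5 lungs were above every vehicle lung. The lung at -0.52 is replicate 5, the array farthest from its group over all probes. Its values correlated at 0.926 with the log2 ratios the authors deposited for this sample, against at least 0.978 on every other array. Without this lung the difference was 1.35 ± 0.31.

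Between the materials on day 28, every NRCWE-030 lung was above every NRCWE-025 lung of the same dose for Dbp, Tef and Hlf at all 3 doses. Dbp was higher by 1.88 ± 0.38, 2.30 ± 0.38 and 1.75 ± 0.40 (SE) at 18, 54 and 162 µg, and by 2.16 ± 0.39 at 18 µg without replicate 5 of NRCWE-030. The share of all probes with this separation was 0.808%, 0.507% and 0.424% at the 3 doses, and nothing is read from it here because the set was chosen on this contrast.

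The second activator, Tef (thyrotroph embryonic factor), had a narrower span, 1.43 between the lowest and highest group means. Vehicle lungs of day 1 measured 0.17, 0.84, 2.18, 0.83 and 0.96. Lungs given NRCWE-030 measured 1.32, 1.74, 1.41, 1.89 and 1.88 at 18 µg. They measured 2.03, 1.92, 1.50, 1.98 and 1.83 at 54 µg and 1.45, 1.40, 2.22, 2.42 and 1.96 at 162 µg. All 15 were above the 4 lower vehicle lungs, and 2 of them, at 162 µg, were also above control replicate 3.

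Tef did not pass against all 5 controls. Its differences for NRCWE-030 were 0.65, 0.85 and 0.90 (SE 0.27 each) in order of dose, with limma's adjusted p of 0.707, 0.367 and 0.143. Without control replicate 3 they were 0.95, 1.15 and 1.19 (SE 0.21 each), with adjusted p of 0.215, 0.027 and 0.00964. After NRCWE-025 the lungs measured 0.97, 1.20, 1.51, 1.33 and 1.33 at 162 µg, a difference of 0.27 ± 0.25 (SE, adjusted p = 0.772), or 0.57 ± 0.19 (adjusted p = 0.269) without control replicate 3.

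The comparison of the materials on day 1 does not use the controls as a baseline, and here Tef was the member that passed. Its fit took the spread from all 14 groups, the treated day 28 lungs on which the set was chosen included. Over the 3 doses together limma's test called 34 probes (0.0833%), and the leading probe of 1 of the 7 genes, Tef, was among them (adjusted p = 0.00375). NRCWE-030 was above NRCWE-025 by 0.84, 0.79 and 0.62 (SE 0.21 each) at 18, 54 and 162 µg. Lungs given NRCWE-025 measured 0.25, 0.96, 0.73, 0.97 and 1.15 at 18 µg and 0.73, 1.07, 0.95, 1.58 and 0.99 at 54 µg, so the materials did not overlap at 18 µg and overlapped at 54 and 162 µg. The Tef call held in each alternative and with each of 30 arrays left out in turn, with adjusted p between 0.0008 and 0.0207. Dbp differed between the materials by 1.57, 0.79 and 0.77 (SE 0.38 each) and did not pass (adjusted p = 0.0767), though it did without control replicate 3, which enters this fit through the spread (adjusted p = 0.00841). At 18 µg the lungs of the materials did not overlap for Dbp, Tef and Bhlhe40, a separation found for 0.36% of probes. On the 4 slides of day 1 that held both materials, with doses pooled, NRCWE-030 was above NRCWE-025 on each, by 0.71 to 1.67 for Dbp and 0.35 to 0.92 for Tef. At the same dose Dbp was higher on each slide that held both (2 at 18 µg, 2 at 54 µg and 3 at 162 µg), by 0.23 to 2.11. Tef was higher on 2 of 2 slides at 18 µg, on 1 of 2 at 54 µg and on 2 of 3 at 162 µg, with differences of -0.076 and -0.10 on the others.

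The other Tef probes gave smaller differences. The probe A_51_P450561, well above background on all arrays, correlated at 0.78 with the leading probe and gave material differences of 0.16, 0.47 and 0.41 (limma's adjusted p over doses = 0.030). The third probe, A_52_P173309, was well above background on 40 of 69 arrays, gave -0.0054, 0.22 and 0.19 (SE 0.09 each), and did not pass (adjusted p = 0.610).

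On day 28 Tef measured 0.48, 0.62, 0.71, 0.96 and 1.35 in vehicle lungs. After NRCWE-030 it measured 0.76, 1.26, 1.40, 1.08 and 1.05 at 18 µg, 1.30, 1.63, 1.97, 1.85 and 1.49 at 54 µg, and 1.61, 1.64, 2.25, 1.71 and 1.59 at 162 µg. The highest dose lay above all vehicle lungs, the middle dose in 4 of 5 mice and the lowest dose in 1 of 5. After NRCWE-025 Tef measured between 0.31 and 0.72 at 18 µg, between 0.19 and 0.82 at 54 µg and between 0.73 and 0.88 at 162 µg. The materials differed by 0.65 ± 0.21, 1.13 ± 0.21 and 0.95 ± 0.22 (SE) on the leading probe, and by 0.18, 0.32 and 0.38 on the median over the 3 Tef probes.

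**Figure D2:**
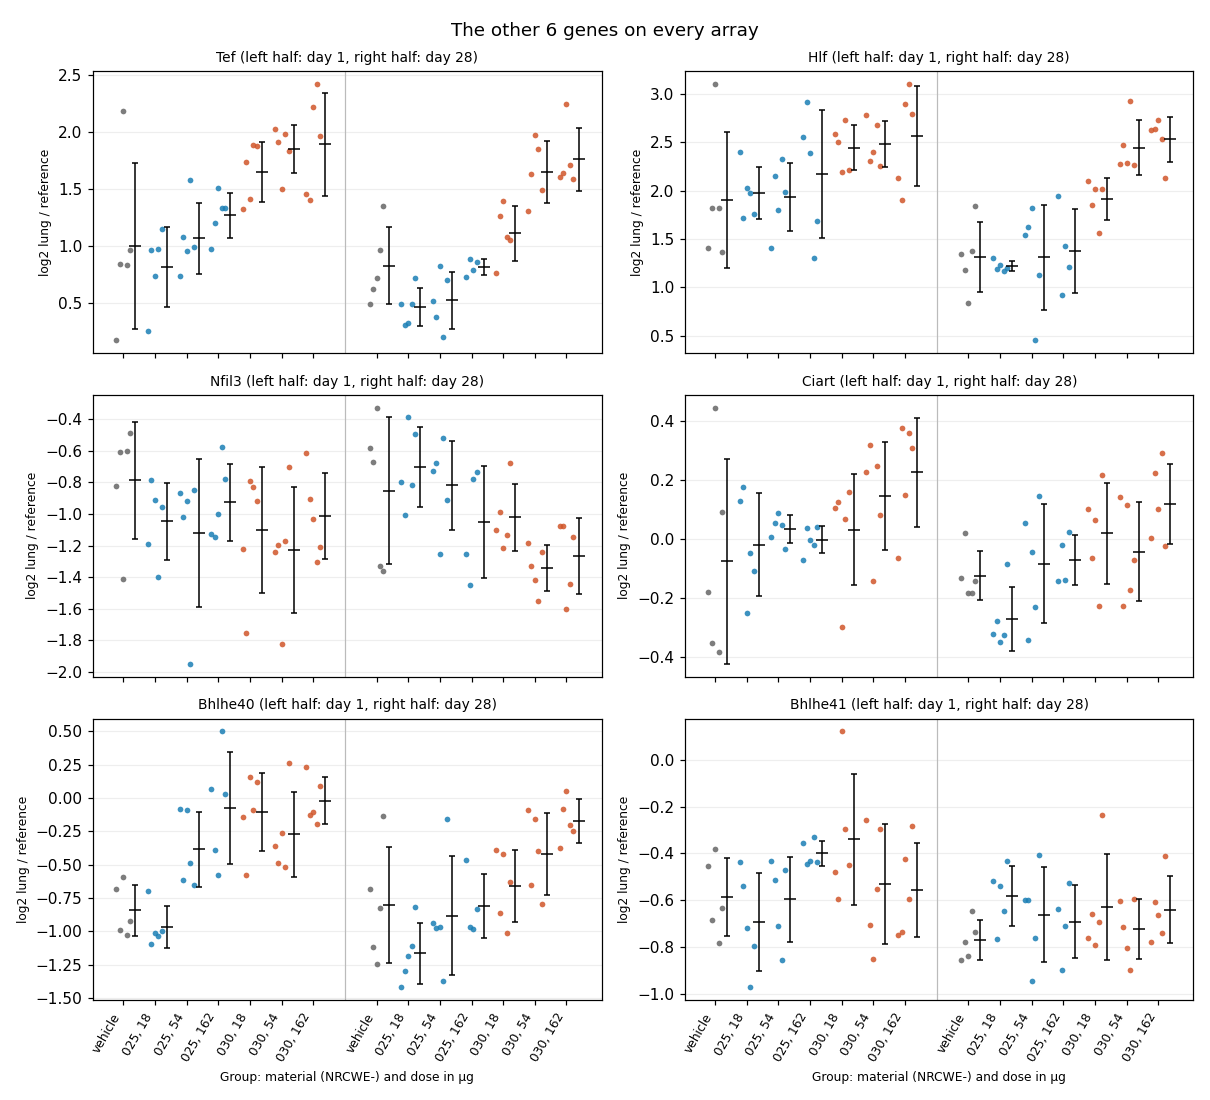
The other 6 genes on every array as log2 lung over reference, by group, with day 1 on the left and day 28 on the right of each panel; points are mice and bars are means ± SD. Tef and Hlf follow the arrangement of Dbp, Nfil3 runs the other way over a span of 0.64, and Bhlhe41 stays between -0.97 and 0.12.

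The third activator, Hlf (hepatic leukaemia factor), measured 1.40, 1.82, 3.10, 1.82 and 1.37 in vehicle lungs of day 1. After NRCWE-030 it measured 2.59, 2.50, 2.19, 2.73 and 2.21 at 18 µg, 2.79, 2.31, 2.40, 2.68 and 2.25 at 54 µg, and 2.13, 1.90, 2.90, 3.10 and 2.79 at 162 µg. As for Dbp, all 15 lungs were above the 4 lower vehicle lungs. At 162 µg the difference was 0.66 ± 0.27 (SE, limma's adjusted p = 0.349), or 0.96 ± 0.21 (adjusted p = 0.0372) without control replicate 3. After NRCWE-025 at 162 µg Hlf spread from 1.30 to 2.92, a difference of 0.27 ± 0.30 (SE, adjusted p = 0.817), or 0.57 ± 0.26 (adjusted p = 0.470) without that control.

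On day 28 Hlf measured 1.34, 1.18, 0.83, 1.37 and 1.84 in vehicle lungs. After NRCWE-030 it measured 2.10, 1.85, 2.02, 1.56 and 2.02 at 18 µg, 2.27, 2.47, 2.29, 2.93 and 2.27 at 54 µg, and 2.63, 2.64, 2.73, 2.53 and 2.13 at 162 µg. The lungs at 54 and 162 µg lay above every vehicle lung and those at 18 µg did so in 4 of 5 mice. Every NRCWE-030 lung was above every vehicle lung for Dbp and Hlf at 54 µg, against 0.593% of probes, and for Dbp, Tef and Hlf at 162 µg, against 0.904%. After NRCWE-025 Hlf measured 1.31, 1.19, 1.23, 1.17 and 1.20 at 18 µg. The materials differed by 0.69 ± 0.25, 1.13 ± 0.25 and 1.15 ± 0.26 (SE) in order of dose.

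**Figure D3:**
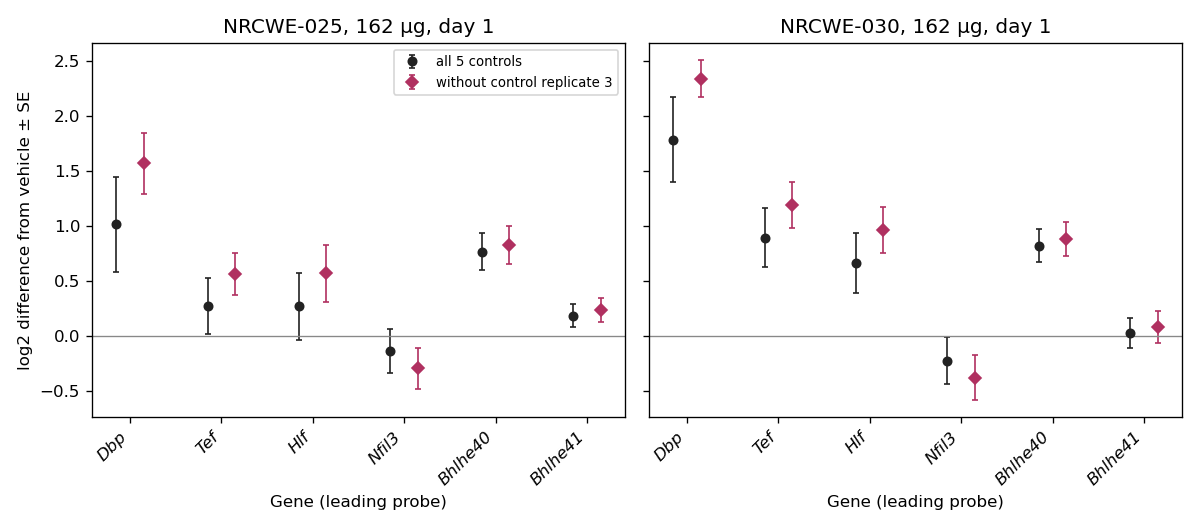
Log2 difference from vehicle ± SE (limma) for 6 of the 7 genes (Ciart, near the detection limit, is left out) at 162 µg on day 1, NRCWE-025 on the left and NRCWE-030 on the right, with all 5 controls (circles) and without control replicate 3 (diamonds). Leaving out that mouse raises Dbp from 1.79 to 2.34 after NRCWE-030 and from 1.02 to 1.57 after NRCWE-025, and leaves Bhlhe40 near the same value.

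Nfil3, the repressor at D-boxes, ran opposite to the activators over the arrays but no dose of day 1 passed. Vehicle lungs measured -0.82, -0.61, -1.41, -0.60 and -0.49, so that the control with high Dbp was the one with the lowest Nfil3. After 162 µg of NRCWE-030 Nfil3 measured -0.61, -0.91, -1.03, -1.30 and -1.21. The difference was -0.23 ± 0.21 (SE, limma's adjusted p = 0.804), or -0.38 ± 0.20 (adjusted p = 0.589) without control replicate 3. On day 28 the vehicle lungs measured -0.58, -0.67, -0.33, -1.33 and -1.36, and the last 2 were the mice with Dbp at 0.55. After NRCWE-030 Nfil3 measured -1.18, -1.33, -1.42, -1.55 and -1.24 at 54 µg and -1.07, -1.08, -1.60, -1.44 and -1.15 at 162 µg, with 2 of 5 lungs at each dose below every vehicle lung. The second Nfil3 probe, A_51_P111492, correlated at 0.92 with the leading one.

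Ciart, a repressor of CLOCK and BMAL1, was near the detection limit, so its values are bounds in many lungs. It was well above background in 2 of 5 vehicle lungs of day 1 and 1 of 5 of day 28. In lungs given 162 µg of NRCWE-030 it was well above background in 5 of 5 on both days, and in lungs given NRCWE-025 in 0 of 5 at 162 µg on day 1 and at 18 and 54 µg on day 28. With NRCWE-030 at 162 µg, 54.2% to 65.2% (day 1) and 60.8% to 70.7% (day 28) of all spots were well above background. In the NRCWE-025 groups named, the range was 50.0% to 60.3% on day 1. On day 28 it was 51.8% to 66.9% at 18 µg and 49.1% to 67.7% at 54 µg. Detection thus varied over whole arrays too, and no difference in Ciart between the materials is read from it. Its detection in the other treated groups is not given here. No fold change is given for Ciart.

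Bhlhe40, a repressor of CLOCK and BMAL1 that also responds to many stimuli outside the clock, was the only member called with all controls in the test for any NRCWE-030 dose effect on day 1 (limma's adjusted p = 0.0328). Vehicle lungs measured -0.68, -0.99, -0.59, -1.03 and -0.92, with control replicate 3 in the range of the rest. After NRCWE-030 Bhlhe40 measured -0.14, -0.58, 0.16, -0.09 and 0.12 at 18 µg, -0.36, -0.49, -0.26, -0.52 and 0.26 at 54 µg, and 0.24, -0.13, -0.10, -0.19 and 0.09 at 162 µg. All 15 lungs were above every vehicle lung, a separation that 0.529%, 0.803% and 2.12% of probes showed at the 3 doses. At 162 µg it was 1.77-fold higher (log2 difference 0.82 ± 0.15 SE, adjusted p = 0.0111), and 0.88 ± 0.16 (adjusted p = 0.0121) without control replicate 3. At 18 and 54 µg the differences were 0.74 and 0.57 (SE 0.15 each) with adjusted p of 0.279 and 0.212, or 0.80 and 0.63 (SE 0.16 each, adjusted p of 0.119 and 0.153) without that control. The call at 162 µg was lost with slide (adjusted p = 0.0524) or scan day (0.0861) as a fixed block, the highest of a range from 0.0024 over the alternatives, and was kept with each array left out. The call for any dose effect was lost, with adjusted p up to 0.105, without control replicate 2, 4 or 5, without replicate 1 or 4 of 18 µg, or without replicate 1, 2, 3 or 5 of 162 µg. On the 3 slides shared with vehicle lungs Bhlhe40 was higher after NRCWE-030 on each, by 0.63 to 1.03 with doses pooled.

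Bhlhe40 also separated after NRCWE-025, at the highest dose. It measured between -1.10 and -0.70 at 18 µg, -0.08, -0.62, -0.09, -0.49 and -0.65 at 54 µg, and 0.07, -0.39, -0.58, 0.50 and 0.03 at 162 µg. The lungs at 162 µg were all above the vehicle lungs (0.74% of probes), those at 54 µg in part, and at 18 µg 2 of 5 lay below every vehicle lung and the others among them. The differences were -0.13, 0.46 and 0.77 (SE 0.17 each), and none passed (adjusted p of 0.999, 0.777 and 0.0718). Leaving out control replicate 3 gave -0.066, 0.52 and 0.83 (SE 0.18 each), and none passed (adjusted p of 0.995, 0.599 and 0.0670). The exact two-sided permutation test, unadjusted, gave p = 0.0079 at 162 µg for either material. The materials differed in Bhlhe40 by 0.86 at 18 µg and by 0.11 and 0.05 at 54 and 162 µg (SE 0.18 each), and the test over the 3 doses did not pass (adjusted p = 0.126).

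On day 28 Bhlhe40 measured -0.68, -1.11, -1.25, -0.83 and -0.13 in vehicle lungs. After 162 µg it measured -0.38, -0.08, 0.05, -0.20 and -0.25 with NRCWE-030 and -0.47, -0.97, -0.98 and -0.84 with NRCWE-025. The materials did not overlap at this dose, but the vehicle lung at -0.13 lay within the NRCWE-030 range. Its paralogue Bhlhe41 stayed between -0.97 and 0.12 on all arrays, with group means from -0.77 to -0.34. At 162 µg of NRCWE-030 on day 1 its difference was 0.03 ± 0.14 (SE, limma's adjusted p = 0.979), or 0.080 ± 0.15 (adjusted p = 0.946) without control replicate 3. The second Bhlhe41 probe, A_52_P618912, was well above background on 2 of 69 arrays and correlated at 0.34 with the leading one. Its difference at that dose, with all controls, was 0.008 ± 0.083 (SE).

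Vehicle lungs of the separate days allow a comparison without particles. No probe of 40831 was called between day 28 and day 1 with limma, 3548 had an unadjusted p under 0.05, and in the fit of all 14 groups 17 were called. None of the 7 genes had an unadjusted p under 0.05. Dbp differed by -0.49 ± 0.56 (SE), which became 0.06 ± 0.38 without control replicate 3, and Hlf by -0.59 ± 0.29 (adjusted p = 0.597), or -0.29 ± 0.18 without that control.

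Few neighbours in the order of the 14 group means differed beyond their spread. For Dbp 1 of 13 neighbouring gaps was larger than the pooled SD of the groups on either side, the gap between 54 µg of NRCWE-030 on day 1 (1.65) and 162 µg of NRCWE-025 on day 1 (1.05). For Tef 1 gap was, between 18 µg of NRCWE-030 and 162 µg of NRCWE-025 on day 1, and for Hlf, Nfil3 and Bhlhe41 none was. The group of 18 µg NRCWE-025 on day 28 was the lowest for Dbp, Tef, Hlf and Bhlhe40 and the highest for Nfil3.

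The members also moved together from mouse to mouse within groups. After each group's mean was subtracted, Pearson's r with Dbp over the 69 arrays was 0.65 for Hlf, 0.60 for Tef and -0.71 for Nfil3, and the median over 12255 genes was 0.005. Hlf ranked number 3 and Tef number 4 of these genes, and Nfil3 was the third lowest. Without control replicate 3 the values were 0.54, 0.44 and -0.68, and without the 2 arrays farthest in Dbp 0.51, 0.46 and -0.70. With group differences kept, Spearman's rho was 0.88, 0.90 and -0.68. For Bhlhe40 r was 0.23 within groups and 0.71 with group differences kept, and for Bhlhe41 -0.08 and 0.17. These arrays share a reference RNA, slides and scan days, and the correlations are given as a description.

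**Figure D4:**
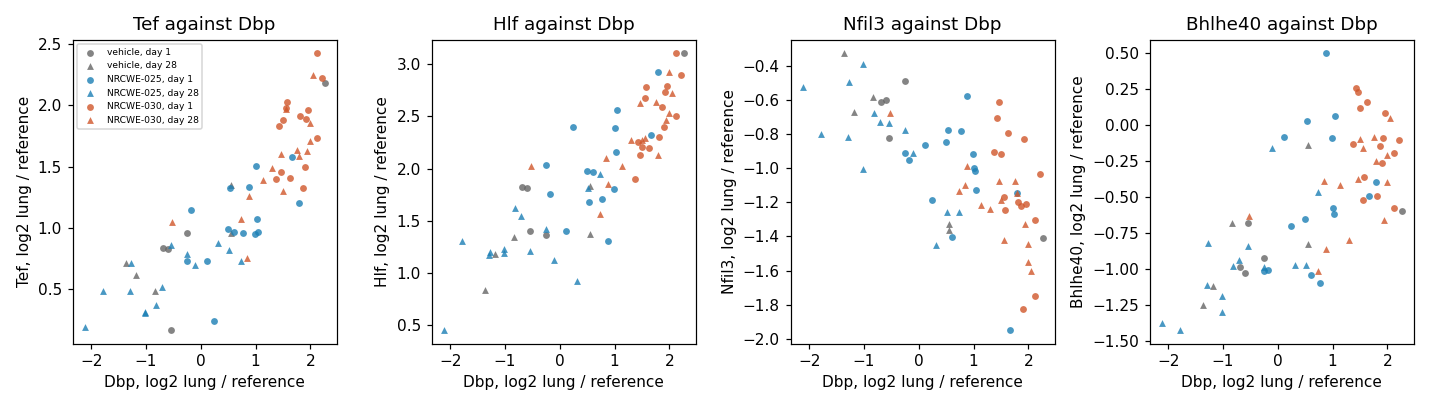
Tef, Hlf, Nfil3 and Bhlhe40 against Dbp, each as log2 lung over reference, 1 point per mouse, coloured by material with circles for day 1 and triangles for day 28. Over all 69 arrays Tef (r = 0.87) and Hlf (r = 0.86) rise with Dbp, Nfil3 falls (r = -0.67), and Bhlhe40 (r = 0.71) is more scattered.

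Clock genes headed the other genes closest to Dbp by the same measure. The highest were Nr1d2 at 0.79 and Nr1d1 at 0.77, which encode the REV-ERB repressors, followed after Hlf and Tef by the clock repressor Per2 at 0.58. Slc1a5, Pfkfb3, Fndc1, Camkk1 and Tspan4 lay between 0.49 and 0.54. The lowest was Arntl, which encodes BMAL1, at -0.76, followed by Spon2 (-0.71), Nfil3, Adm (-0.67), Rasl11a (-0.64) and Ccnjl (-0.63), with Lonrf3, Dtx4, Atoh8 and Ankle1 between -0.55 and -0.48. Without control replicate 3 Nr1d2 was at 0.69, Nr1d1 at 0.71 and Arntl at -0.63, while Per2 fell to 0.40, Camkk1 to 0.34, Pfkfb3 to 0.28 and Tspan4 to 0.24, so the place of these 4 genes near the top rests in part on that lung.

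Of the 18 core clock genes, 1 was called at 162 µg of NRCWE-030 on day 1, Arntl, which was lower (log2 difference -1.51 ± 0.32 SE, limma's adjusted p = 0.026), and none was higher; the median of the 18 was -0.06 and that of all probes 0.00. Between the materials on day 1 limma's test over doses called 2 of the 18, against 0.0833% of probes. Per2 (adjusted p = 0.000193) was higher after NRCWE-030 by 0.91 to 1.15 over the doses. Arntl (adjusted p = 0.00201) was lower by 0.83, 1.04 and 0.85 on the log2 scale. Of 11 genes rhythmic in many tissues, which include Arntl and Per2, Tspan4 was called higher at 162 µg (1.16 ± 0.21 SE, adjusted p = 0.0106) and between the materials (adjusted p = 1.15e-06). With all controls none of the 6 known PAR bZIP targets and none of the 7 related bZIP genes was called in any day 1 test. At both 18 and 54 µg of NRCWE-030 without control replicate 3, 3 of the 18 core clock genes were called higher (0.022% and 0.108% of probes) and 1 lower. At 162 µg of NRCWE-025, 1 was then called higher (0.0294% of probes) and 1 lower. With control replicate 3 left out, 4 of the 18 were called at 162 µg of NRCWE-030 (0.512% of probes were higher): Arntl lower (-1.96 ± 0.15 SE, adjusted p = 1.5e-06), and Per2 (1.66 ± 0.21), Per1 (1.75 ± 0.28) and Nr1d2 (1.26 ± 0.14) higher. Tspan4 was then higher by 1.40 ± 0.16 (adjusted p = 0.000386), and of the related bZIP genes Cebpd was called higher (1.26 ± 0.26, adjusted p = 0.0295).

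Markers that moved with the same groups are given here, and their part in the result was not tested. Fkbp5, 1 of 7 measured stress hormone responsive genes, was called higher at 162 µg of NRCWE-030 on day 1 (log2 difference 1.40 ± 0.31 SE, limma's adjusted p = 0.0331), and by 1.73 ± 0.25 without control replicate 3 (adjusted p = 0.00197). The mean of the 7 was -0.13 ± 0.41 in the day 1 controls and 0.57 ± 0.15 after that dose (SD, n = 5 each). Among 4 fat genes Cidec was called lower (-1.36 ± 0.31 SE, adjusted p = 0.0425), a call lost without control replicate 3 (-1.33 ± 0.34, adjusted p = 0.0896). The mean of the 4 was between 2.19 and 5.88 in the control lungs and between 0.83 and 3.58 at that dose. It was low after both materials, with group means of 1.60 to 2.11 for NRCWE-025 and 1.49 to 2.04 for NRCWE-030 against 3.36 ± 1.46 in controls (SD, n = 5). With all controls none of the measured markers of epithelium, endothelium, neutrophils, macrophages, T cells, B cells or heart muscle was called at any dose of day 1. At most 0.862% of all probes were called at a dose, so nothing is read from the lack of calls among these few markers. Without control replicate 3 the B cell gene Ms4a1 was called lower at 54 and 162 µg of NRCWE-030 (-1.14 ± 0.17 at 54 µg).

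On day 28 markers also moved with the materials, and their part in the separation was not tested. The mean of the 4 measured macrophage genes was 5.04, 5.01 and 5.12 after NRCWE-030 in order of dose, 4.61, 4.50 and 4.79 after NRCWE-025, and 4.66 ± 0.39 (SD, n = 5) in vehicle lungs, which spanned 4.28 to 5.30. The mean of the 7 stress hormone responsive genes was -0.29, 0.11 and 0.35 after NRCWE-030, -0.45, -0.31 and -0.30 after NRCWE-025, and -0.08 ± 0.27 in vehicle lungs. The mean of the 5 neutrophil genes was 2.91 to 3.13 in the treated groups and 3.72 ± 0.73 in vehicle lungs.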

How the data were processed

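RNA from 69 mouse lungs (Cy5) was hybridised against Universal Mouse Reference RNA (Cy3) on Agilent 4x44K arrays, without dye swaps. The deposited files hold, per the file headers, spot and local background intensity from Agilent Feature Extraction 11.0.1.1, flags, and the scanner's log10 ratio after its own background subtraction and dye normalization. The authors also deposited a table of processed log2 ratios, used as an alternative. A local background that the scanner software had marked took the median of the unmarked ones, then normexp correction (offset 50) and loess within each array were applied with limma 3.58.1 in R 4.3.3; marked spots were left out. Groups came from the labels. Day 1 doses against control, the materials on day 1 and vehicle day 28 against day 1 were tested with limma on 40831 probes with Benjamini-Hochberg adjustment, called under 0.05. Exact permutation tests over mice were added. A probe was named through its RefSeq accession, and a gene's leading probe had the highest mean Cy5 signal.

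All 7 genes are named, with the 10 genes at each end of the likeness ranking (12255 genes well above background on at least 62 of 69 arrays) and called genes of the lists. The members and lists were chosen with earlier results of these data known. In simulated data for the dose effect of NRCWE-030 on day 1 (40831 probes), 94% of log2 changes of 1 and 100% of changes of 2 were recovered, and 4.9% of calls were false. The simulated noise was normal and independent, without an outlying mouse or shared slides, and only the 162 µg group of randomly drawn probes was changed. It does not show how often changes in genes as variable as Dbp are found. Dbp, with a difference of 1.79 at that dose, was not called in limma's test for any dose effect (adjusted p = 0.0551). The precision is limited by the 4 or 5 arrays per group.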

Additional observations from a re-analysis of the deposited data

Results flagged for a closer look

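In 10 of 98 combinations of gene and group a lung lay far from the others of its group by Dixon's test, which chance gives in about 1 in 20. On day 1 these were control replicate 3 for Dbp (2.256) and Hlf (3.102), replicate 4 of 54 µg NRCWE-025 for Nfil3 (-1.948), replicate 3 of 18 µg NRCWE-030 for Ciart (-0.2971) and replicate 1 of 18 µg NRCWE-025 for Bhlhe40 (-0.6972). On day 28 they were replicate 5 of 18 µg NRCWE-030 for Dbp (-0.5197) and Bhlhe41 (-0.2342), the array farthest from its group over all probes, replicate 3 of 162 µg NRCWE-030 for Tef (2.248), and control replicate 2 (0.02021) and replicate 5 of 18 µg NRCWE-025 (-0.08367) for Ciart.

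The materials differed on day 1 over the 3 doses, by limma's adjusted p, for Tef (0.00375), Arntl (0.00201), Per2 (0.000193) and Tspan4 (1.15e-06).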

How the results depend on the processing

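Over all 7 genes, all tested contrasts and all settings, 72 of 2286 refits changed the sign of a difference, and in none of these was the difference called in either fit; the largest such difference was 0.49 (log2). Among the differences named above, Dbp at 18 µg of NRCWE-025 became -0.60 with slide and -0.40 with scan day as a fixed block, Tef at 162 µg of NRCWE-025 became -0.067 with the median over a gene's probes and -0.085 with slide as a fixed block, and Hlf at that dose became -0.072 with marked local backgrounds used as given; Dbp between the vehicle groups ranged from -0.74 to 0.064 with 1 array left out, the highest value without control replicate 3. The number of members called for any NRCWE-025 dose effect was 0, and 1 with slide as a random block or in the fit of all 14 groups; for NRCWE-030 it was 1, and 2 with the median over probes, without dim probes or with slide as a random block, 3 in the fit of all groups and 0 with the ordinary F-test. Of 21 differences of NRCWE-025 from control 0 were called, 1 with slide as a random block or all groups, and 2 by exact permutation test, unadjusted, or 9 without control replicate 3; of those of NRCWE-030 2 were called, 4 with slide as a fixed block, 5 with all groups, and 7 and 17 by permutation test. Between the materials 1 member was called, 2 with the scanner's ratios, without dim probes, with slide as a fixed block or in the 6 treated groups, and 3 with slide as a random block or with scan day. With 1 array left out these counts ranged over 0 to 1, 0 to 3, 0 to 1, 1 to 7 and 1 to 1, and 0 to 0 for vehicle. For the materials only the 30 treated arrays of day 1 were left out in turn. Leaving out control replicate 3 of day 1, which enters that fit through the spread, gave 2 members. Over the alternatives the number of probes called was 83 to 569 for any NRCWE-030 dose effect, 53 to 651 at 162 µg, 0 to 164 at 162 µg of NRCWE-025 and 16 to 68 between the materials. The fits of vehicle with slide as a block were not run because each control had a slide of its own. The permutation tests without control replicate 3 were chosen after seeing the data. No paired analysis was possible because the labels give no replicate number that links mice across groups.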
